A study of Mus musculus with 2 samples.

Results

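The genes described here were 10 members of the AP-1 and immediate early group. They comprised the AP-1 subunits Fos, Fosb, Jun, Junb and Jund, the transcriptional regulators Egr1 and Ier2, and the negative regulators Dusp1, Btg2 and Zfp36. They were taken by symbol from the 31053 genes of the deposited tables, in which all 10 were present, and they held 0.172% of the wild-type and 0.166% of the knock-in UMIs of the cells kept. A UMI is a tag that counts 1 captured RNA molecule. The cells came from mouse bone marrow sorted as Lin- Kit+, a gate that enriches blood progenitors, which display the receptor Kit and none of the markers of mature lineages. One group was 1 wild-type (WT) library and the other was 1 library from GATA-1 mutation knock-in (KI) mice, whose mutation the series title calls 2RA. GATA-1 is the zinc finger transcription factor that drives erythroid and megakaryocyte maturation. The nature of the mutation, the strain, the age of the animals and the number of animals in each library are not given in the sources used here.

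Immediate early genes are transcribed within minutes of a stimulus, without new protein synthesis, through kinases of the MAPK pathways and the factors SRF, ELK and CREB. Fos and Jun proteins pair to form AP-1, which binds DNA and drives later genes, while Dusp1, Zfp36 and Btg2 are induced alongside and limit the response. Their transcripts are short-lived, and in marrow cells they are induced by cytokines and also by dissociation and sorting of tissue.

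The labels were checked before the members were compared. Kit was detected in 64.5% of the 5489 cells of the wild-type library and in 56.0% of the 5500 of the knock-in library, at unequal depth, with levels of 126 and 130 CPM (a gene's UMIs scaled by the summed UMIs of the cells). Cd3e and Ly6g, markers of T cells and mature neutrophils, were at 0 in wild-type cells and at 16 and 2 UMIs in knock-in cells. A median of 9635 UMIs was recorded in wild-type and 5272.5 in knock-in cells, and 10 cell barcodes occurred in both libraries. Each genotype had a single library, so no difference below could be tested over samples or has a replicate check. All 95% intervals cover counting error only. Differences between the genotypes and differences between these libraries in handling or batch cannot be told apart.

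Cells were clustered on genes other than the members, and clusters were named after marker genes they resembled. There were 6 classes with at least 100 cells in each library. They were stem and multipotent (636 wild-type and 795 knock-in cells), lymphoid-primed (214 and 212), basophil and mast (164 and 185), megakaryocyte (336 and 386), erythroid (2286 and 1830) and myeloid cells (1572 and 571), the last with granulocyte-monocyte, monocyte and neutrophil clusters. The erythroid class lay in different clusters in the libraries. Clusters 2 and 4 held most of it in wild type (1223 and 974 cells), and clusters 3 and 9 held most of it in the knock-in (1203 and 508 cells). The largest unnamed cluster, cluster 1, held 48 wild-type and 1331 knock-in cells and was led by Csrp3, Ctla2a, Car1 and Tspo2. It carried Car1, an early erythroid carbonic anhydrase, at 1226 and 1156 CPM, and its median depth of 2928 UMIs in the knock-in was low. Its best marker score was for the megakaryocyte list (0.453), with 1 gene of that list detected in at least 10% of its cells. None of that list was among its 10 leading genes. These held Car1 and Ermap of the erythroid list and Csrp3 of the basophil and mast list. Of other erythroid markers, Klf1 was at 143 and 208 CPM, Rhd at 0 and 4.30 CPM and Cpox at 42.8 and 38.5 CPM. Knock-in cluster 9 had 253, 55.9 and 125 CPM of these, and wild-type cluster 4 had 183, 55.9 and 104 CPM. Knock-in megakaryocyte cells had 46.0, 1.86 and 33.9 CPM, and knock-in basophil and mast cells 64.7, 0 and 17.6 CPM. Whether cluster 1 is erythroid was not tested. Because cells of cluster 1 had high member levels, erythroid values are given without and with it, a choice made after seeing the data.

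The DNA just upstream of 4 members is shown because Fos, Dusp1 and Zfp36 were lower in the knock-in in every class while Btg2 was not. The sequences are the RefSeq windows of build GRCm38.p6, 5′ to 3′ on the gene's strand, in which 8 of the 10 members were found (all but Egr1 and Ier2). Capitals mark matches to TGACGTCA (the cAMP response element), its shorter core TGACG, GCGNGGGCG (the EGR1 site), the CArG box bound by SRF, or TATAA. The Fos window is chr12:85473640-85473889 (+ strand), the Dusp1 window chr17:26508523-26508722 (- strand) and the Btg2 window chr1:134079156-134079405 (- strand). The Zfp36 stretch is chr7:28379267-28379296 (- strand).
Fos: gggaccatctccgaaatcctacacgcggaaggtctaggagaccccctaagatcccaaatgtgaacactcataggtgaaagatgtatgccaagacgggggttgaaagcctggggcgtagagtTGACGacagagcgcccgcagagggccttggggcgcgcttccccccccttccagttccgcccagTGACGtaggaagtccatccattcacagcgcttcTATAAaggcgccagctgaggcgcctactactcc
Dusp1: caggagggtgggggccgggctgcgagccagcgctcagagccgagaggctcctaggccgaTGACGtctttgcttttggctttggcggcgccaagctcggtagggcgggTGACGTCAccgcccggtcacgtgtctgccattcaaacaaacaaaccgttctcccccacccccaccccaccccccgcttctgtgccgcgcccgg
Btg2: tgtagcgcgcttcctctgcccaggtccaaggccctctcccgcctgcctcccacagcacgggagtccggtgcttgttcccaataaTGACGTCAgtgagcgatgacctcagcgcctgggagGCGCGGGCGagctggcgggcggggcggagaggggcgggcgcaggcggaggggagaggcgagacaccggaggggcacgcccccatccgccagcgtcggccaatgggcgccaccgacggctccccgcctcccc
Zfp36: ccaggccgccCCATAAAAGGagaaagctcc
Searches covered 250 bases upstream on both strands, except TATAA, which was sought on the gene's strand only. TGACGTCA was present in Dusp1 (143 to 136 bases before the start) and Btg2 (166 to 159 bases) and in 1.55% of the 32851 promoters of the table. Each TGACGTCA also contains TGACG, read on both strands. TGACG was present in Fos (129 to 125 and 66 to 62 bases), Fosb, Junb, Dusp1 and Btg2, and in 17.8% of all promoters. GCGNGGGCG was found in Fosb, Btg2 and Zfp36 (4.70% of promoters), the CArG box in Zfp36 (58 to 49 bases, 1.47%) and TATAA in Fos (33 to 29 bases, 16.0%). The AP-1 site in the form TGANTCA occurred in none of the 8 windows and in 6.75% of all. Other spellings of these sites and bases farther upstream were not searched. Dusp1 and Btg2 shared TGACGTCA, and their values are given below. The part of any motif in the member values was not tested. A match is a description of letters and not a measured binding site.

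Basophil and mast cells carried the highest summed level of the 10 members in both libraries, and erythroid cells the lowest. In wild type the sums were 6601 CPM in basophil and mast cells, 4152 in stem and multipotent, 3484 in lymphoid-primed, 3474 in megakaryocyte, 1397 in myeloid and 1219 in erythroid cells. The lymphoid-primed (3382 to 3588) and megakaryocyte (3401 to 3549) sums did not differ beyond counting error, and the other neighbours in the order had intervals that did not overlap. In the knock-in the same order held, except that megakaryocyte cells (2360 CPM) stood above lymphoid-primed cells (2076 CPM), with basophil and mast cells at 5401, stem and multipotent cells at 3356, myeloid cells at 1111 and erythroid cells at 665 CPM. Each sum was lower in the knock-in. The log2 ratio of knock-in to wild type was -0.29 in basophil and mast, -0.31 in stem and multipotent, -0.75 in lymphoid-primed, -0.56 in megakaryocyte, -0.87 in erythroid and -0.33 in myeloid cells. Within the myeloid class it was -0.34 in granulocyte-monocyte and -0.53 in monocyte cells. In neutrophil cells (1052 and 1006 CPM) it was -0.06, and the interval included 0 (-0.14 to 0.01).

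**Figure D1:**
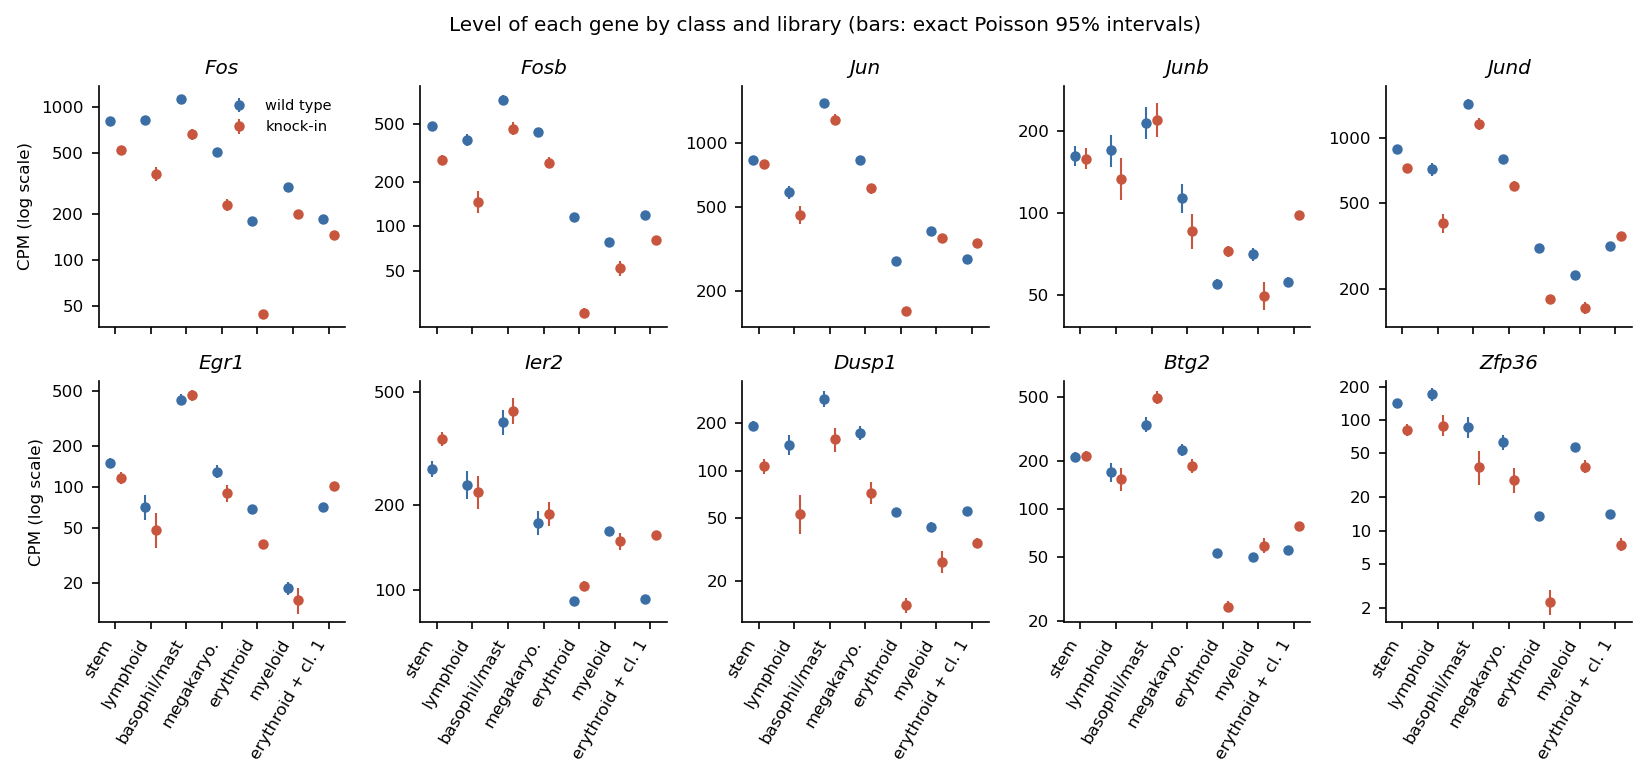
Level of each of the 10 genes in the 6 classes and in erythroid cells with cluster 1, in CPM on a log axis, with wild type and knock-in as separate points and exact Poisson 95% intervals. The points of basophil and mast cells lie highest for most genes, and those of Fos, Fosb, Dusp1 and Zfp36 are lower in the knock-in in every class.

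The erythroid sum depended on cluster 1. With it the wild-type and knock-in sums were 1248 and 1394 CPM, and the log2 ratio was 0.16 (0.14 to 0.18). The knock-in erythroid sum then lay above the knock-in myeloid sum (1111 CPM). Over all cells kept, unnamed clusters included, the sums were 1720 and 1658 CPM (-0.05). Cluster 1 itself had summed levels of 8596 CPM in its 48 wild-type and 5818 CPM in its 1331 knock-in cells, both above the basophil and mast cells of the same library. Among the named erythroid clusters, cluster 4 of the wild type had 3743 CPM and its cluster 2 had 586.7, while clusters 9 and 3 of the knock-in stood at 1352 and 521 CPM.

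A member was counted as lower or higher when its ratio was at least 1.5-fold, and all 10 members had the 50 UMIs over both libraries that were required in each class. The knock-in was lower for 4 of 10 members in stem and multipotent cells (4.44% of the 8608 genes measured there), 5 in lymphoid-primed (6.3% of 5234), 4 in basophil and mast (6.13% of 4762), 4 in megakaryocyte (4.81% of 7482), 8 in erythroid (6.27% of 10558) and 2 in myeloid cells (4.81% of 9879). No member was higher by that fold in any of the 6 classes, where 3.8%, 4.32%, 7.08%, 3.7%, 4.7% and 4.94% of all genes were, in the same order. The members' median log2 ratio lay between -0.98 in erythroid and -0.28 in basophil and mast cells, and that of all genes between 0.02 and 0.08. With cluster 1 in the erythroid class, 2 members were lower (Dusp1 and Zfp36) and 2 higher (Junb and Ier2), against 4.35% and 9.34% of 10752 genes, and the members' median was 0.20. The erythroid counts were 4 lower and 2 higher under a stricter cell filter, under a finer clustering and with each knock-in cell assigned to a wild-type cluster. The myeloid count of lower members ranged from 1 to 7 over the settings tried. Apart from cluster 1 and the 1.2-fold setting, the share of all genes was not taken under alternatives. Those counts therefore have no background share beside them. At 1.2-fold, 8 members were lower in lymphoid-primed (19.9% of all genes), 9 in megakaryocyte (17.5%) and 7 in myeloid cells (13.1%), and 1 each was higher in stem and multipotent (19.1%), basophil and mast (27.8%) and erythroid cells (14.9%).

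Fos encodes the inducible AP-1 partner of Jun, and it was lower in the knock-in in every class. In stem and multipotent cells its levels were 809 (wild type) and 523 CPM (knock-in; log2 ratio -0.63, -0.72 to -0.54), and at 829 and 365 CPM in lymphoid-primed cells (-1.18, -1.36 to -1.01). In megakaryocyte cells Fos was at 510 and 229 CPM (-1.15, -1.31 to -1.0). Basophil and mast cells held the most, at 1131 and 665 CPM (-0.77), and myeloid cells 300.1 and 201 CPM (-0.58). Only the myeloid ratio fell short of 1.5-fold. Erythroid Fos was 181 and 44.5 CPM (-2.02, -2.11 to -1.93) without cluster 1 and 185 and 147 CPM (-0.34, -0.39 to -0.28) with it.

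Fosb, a second inducible Fos protein, followed Fos in direction in all 6 classes. Its levels were 483 and 285 CPM in stem and multipotent cells (-0.76, -0.88 to -0.64), and 388 and 147 CPM in lymphoid-primed cells (-1.40, -1.68 to -1.13). Megakaryocyte cells had 440.0 and 271 CPM of Fosb (-0.70), basophil and mast cells 729 and 462 CPM (-0.66) and myeloid cells 77.9 and 52.0 CPM (-0.58). Within the myeloid class the Fosb interval of neutrophil cells included 0 (-0.32, -0.73 to 0.07). Erythroid Fosb was 116 and 25.7 CPM (-2.18, -2.30 to -2.06), and -0.56 (-0.64 to -0.49) with cluster 1.

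The Jun proteins differed less between the libraries than the Fos proteins. Jun, the main DNA-binding partner of Fos, had 836.5 and 797 CPM among stem and multipotent cells, where its interval included 0 (-0.07, -0.15 to 0.01). In the other 5 classes the Jun interval lay below 0, from -0.10 in myeloid to -0.79 in erythroid cells (277 and 160 CPM). Neutrophil cells, within the myeloid class, had a Jun ratio of 0.08 (-0.05 to 0.22). Jund, the subunit that many cells express without a stimulus, was below 0 in all 6 classes, between -0.29 in stem and multipotent (895 and 730 CPM) and -0.83 in lymphoid-primed cells (717 and 403 CPM). With cluster 1 the erythroid ratios of Jun and Jund were above 0, at 0.25 (0.21 to 0.29) and 0.16 (0.12 to 0.19).

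Junb, a Jun protein that can oppose Jun, did not share one direction. Stem and multipotent cells had 162 and 158 CPM of Junb (-0.03, -0.21 to 0.14), and basophil and mast cells had 214 and 220 CPM (0.04, -0.25 to 0.33). Its ratio was below 0 in myeloid cells (70.7 and 49.7 CPM, -0.51, -0.70 to -0.32), lymphoid-primed cells (-0.35) and megakaryocyte cells (-0.40). Erythroid cells had the opposite sign, at 55.0 and 72.5 CPM (0.40, 0.31 to 0.49), and 0.81 (0.73 to 0.89) with cluster 1. Junb shares 351 bases of its span on chromosome 8 with Prdx2, a peroxiredoxin gene of the opposite strand. Prdx2 was at 1024 and 1256 CPM in erythroid cells (0.30, 0.27 to 0.32) and at 394 and 375 CPM in myeloid cells (-0.07). Whether the counting used strand is not given in the sources used here, and the part of Prdx2 in the Junb values was not tested.

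Egr1, a zinc finger factor induced by the MAPK pathway, varied widely by lineage. Basophil and mast cells had 436 and 468 CPM of it (0.10, -0.10 to 0.30) and myeloid cells 18.3 and 14.9 CPM (-0.29, -0.65 to 0.06). Stem and multipotent cells had 151 and 118 CPM of Egr1 (-0.36, -0.56 to -0.17). Its erythroid levels were 69.4 and 38.4 CPM (-0.85, -0.96 to -0.74), and with cluster 1 the sign was the opposite (0.52, 0.44 to 0.60). Ier2, a small nuclear regulator induced by growth factors, was the member with the least difference over the 6 classes without cluster 1. It was higher in knock-in stem and multipotent cells (268 and 342 CPM, 0.35, 0.23 to 0.48) and erythroid cells (91.6 and 103 CPM, 0.17, 0.10 to 0.25), and lower in myeloid cells (-0.12, -0.23 to -0.01). The Ier2 intervals of the other 3 classes included 0. With cluster 1 the erythroid levels of Ier2 were 92.9 and 157 CPM (0.75, 0.69 to 0.82), past 1.5-fold.

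Dusp1, the phosphatase that switches off MAP kinases, and Zfp36, the protein tristetraprolin that destabilises AU-rich transcripts, were the only members at least 1.5-fold lower in all 6 classes. The Dusp1 levels were 192 and 107 CPM among stem and multipotent cells (-0.85, -1.04 to -0.66), 146 and 53.1 CPM in lymphoid-primed cells (-1.46, -1.93 to -1.0), and 173 and 72.0 CPM in megakaryocyte cells (-1.27). Its ratio was -0.85 in basophil and mast cells (284 and 158 CPM) and -0.73 in myeloid cells (44.1 and 26.6 CPM). These differences exceeded counting error in each class, but the Dusp1 interval of neutrophil cells, within the myeloid class, included 0 (-0.30, -0.77 to 0.14). Erythroid Dusp1 was 54.4 and 14.1 CPM (-1.95, -2.12 to -1.79), and -0.67 (-0.78 to -0.56) with cluster 1.

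Zfp36 was scarcest in erythroid cells, at 13.6 and 2.24 CPM (483 and 57 UMIs), which gave the ratio of -2.60 (-3.02 to -2.20), or -0.91 (-1.15 to -0.68) with cluster 1. Stem and multipotent cells had 143 and 82.2 CPM (-0.80, -1.02 to -0.58), and lymphoid-primed cells 172 and 89.6 CPM (-0.94, -1.32 to -0.57). The basophil and mast ratio of Zfp36 rested on 87 and 32 UMIs (-1.21, -1.84 to -0.61). Megakaryocyte cells were at 63.4 and 28.8 CPM (-1.14) and myeloid cells at 57.5 and 38.0 CPM (-0.60). The knock-in value was thus below the wild-type value by more than counting error in every class.

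Btg2, an antiproliferative gene also driven by p53, had no common direction. Knock-in levels were above wild-type levels in basophil and mast cells (338 and 499 CPM, 0.56, 0.35 to 0.77) and in myeloid cells (49.9 and 59.1 CPM, 0.25, 0.06 to 0.43). Within the myeloid class Btg2 was higher in neutrophil cells (32.9 and 71.1 CPM, 1.11, 0.77 to 1.45), while the intervals of granulocyte-monocyte (-0.08) and monocyte cells (-0.12) included 0. Stem and multipotent cells were at 213 and 215 CPM (0.01, -0.14 to 0.16), and megakaryocyte cells at 235 and 185 CPM (-0.34). In erythroid cells Btg2 was at 53.0 and 24.5 CPM (-1.12, -1.25 to -0.99), and with cluster 1 at 55.1 and 78.5 CPM (0.51, 0.42 to 0.60).

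**Figure D2:**
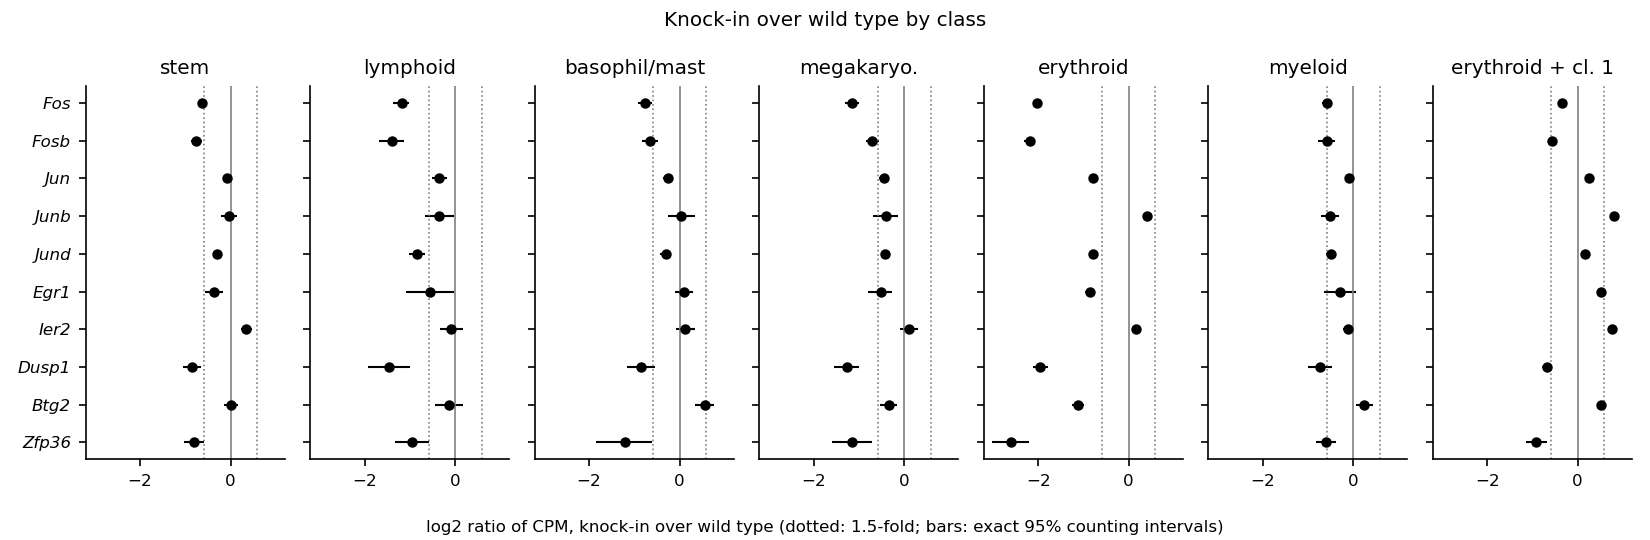
Log2 ratio of knock-in to wild type for each gene and class, with exact conditional binomial 95% intervals and dotted lines at 1.5-fold. Fos, Fosb, Jund, Dusp1 and Zfp36 lie below 0 in all 6 classes (Jund at 0.16 in erythroid cells with cluster 1), and Junb, Ier2 and Btg2 lie on both sides of 0.

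Markers of other cells were read beside these values. In stem and multipotent cells a macrophage list of 5 genes summed to 42.2 CPM in wild type, with all 5 detected, and to 12.6 CPM in the knock-in, with 4 detected. Its part in the lower Fos, Fosb, Dusp1 and Zfp36 of that class was not tested. In lymphoid-primed cells, where those 4 members were lower too, the same list was at 2.37 and 3.13 CPM, and in erythroid cells at 0.732 and 0.945 CPM. It was lower in knock-in basophil and mast cells (19.0 and 8.23 CPM) and myeloid cells (11.4 and 6.39 CPM), where Dusp1 and Zfp36 were lower too, and its part there was not tested. T cell genes were at 0 in all 6 wild-type classes and at no more than 1.18 CPM in any knock-in class. A list of 3 mature neutrophil genes was at 0 in wild-type and at 16.2 CPM in knock-in myeloid cells, and its part in the myeloid member values was not tested. B cell genes lay between 2.82 and 48.1 CPM in wild-type and 2.64 and 66.7 CPM in knock-in classes. Genes of stroma and endothelium lay between 4.67 and 69.1 CPM and between 2.40 and 59.4 CPM, with Col1a1 and Cdh5 at 0 in all of them. The erythroid genes Car1 (239 and 18.4 CPM), Klf1 (15.5 and 1.148 CPM) and Rhd (18.3 and 1.148 CPM) were higher in wild-type than in knock-in monocyte cells, where all 10 members had ratios below 0. Car1 was also lower in knock-in stem and multipotent (70.0 and 32.9 CPM), lymphoid-primed (79.7 and 30.2 CPM) and megakaryocyte cells (125 and 56.2 CPM). It was higher in knock-in basophil and mast cells (81.1 and 98.8 CPM). Klf1 was lower in knock-in stem and multipotent (5.16 and 4.74 CPM) and lymphoid-primed cells (4.73 and 0 CPM). In megakaryocyte cells Klf1 (35.0 and 46.0 CPM) and Rhd (0.813 and 1.86 CPM) were higher in the knock-in. The part of these transcripts in the member values was not tested.

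To count cells rather than sums, every cell was thinned to 2000 UMIs, and a cell was called responding when at least 3 of the 10 members had a UMI. In basophil and mast cells the responding share was 83.9% in wild type (77.0% to 89.4%) and 88.3% in the knock-in (82.4% to 92.8%), a difference of 4.45 percentage points (-3.65 to 12.7). Stem and multipotent cells had shares of 74.0% and 70.5% (-3.49, -8.29 to 1.36), so in these classes a difference was not detectable beyond counting error at these settings. The stem and multipotent interval lay below 0 under the looser cell filter (-6.79, -12.5 to -1.06), with thinning to 1000 UMIs (-9.28, -14.5 to -3.97) and when at least 5 members were required (-9.55, -14.8 to -4.26). The share was lower in knock-in lymphoid-primed cells, at 75.6% and 51.5% (-24.1, -33.2 to -14.6), and in megakaryocyte cells, at 69.0% and 57.1% (-11.9, -19.0 to -4.54). The megakaryocyte interval included 0 with thinning to 4000 UMIs (-4.05, -11.6 to 3.49) and when 2 members sufficed (-5.32, -11.7 to 1.21). Myeloid cells were responding in 35.3% and 25.0% (-10.3, -14.6 to -5.83). Within them monocyte cells had 49.3% and 25.8%, granulocyte-monocyte cells 36.5% and 25.7%, and neutrophil cells 22.8% and 23.2%.

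Erythroid cells were responding in 36.6% (wild type) and 17.2% (knock-in) of cases (-19.3, -22.0 to -16.6), but in 37.3% and 45.8% with cluster 1, whose own shares were 88.2% and 89.6%. The sign of this difference was also the opposite under the stricter cell filter (2.26) and the finer clustering (3.17), and the myeloid difference was 0.238 when at least 5 members were required. The lowest shares were in cluster 13, an erythroid cluster with 0 responding cells among 64 in wild type and 0 among 57 in the knock-in. A count of 0 allows shares of up to 4.69% and 5.26% there. Without thinning, the stem and multipotent shares were 87.3% and 83.8%, the erythroid shares 82.5% and 74.7%, and the myeloid shares 83.3% and 79.2%. Thinning left out 38 wild-type and 19 knock-in erythroid cells, and 5 and 42 stem and multipotent cells. No class is known to lack these genes, so no background share was available, and free RNA in droplets was not estimated. Mitochondrial shares of responding and other cells were alike (medians of 4.25% and 4.45% in wild-type stem and multipotent cells, 3.32% and 3.43% in wild-type erythroid cells).

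**Figure D3:**
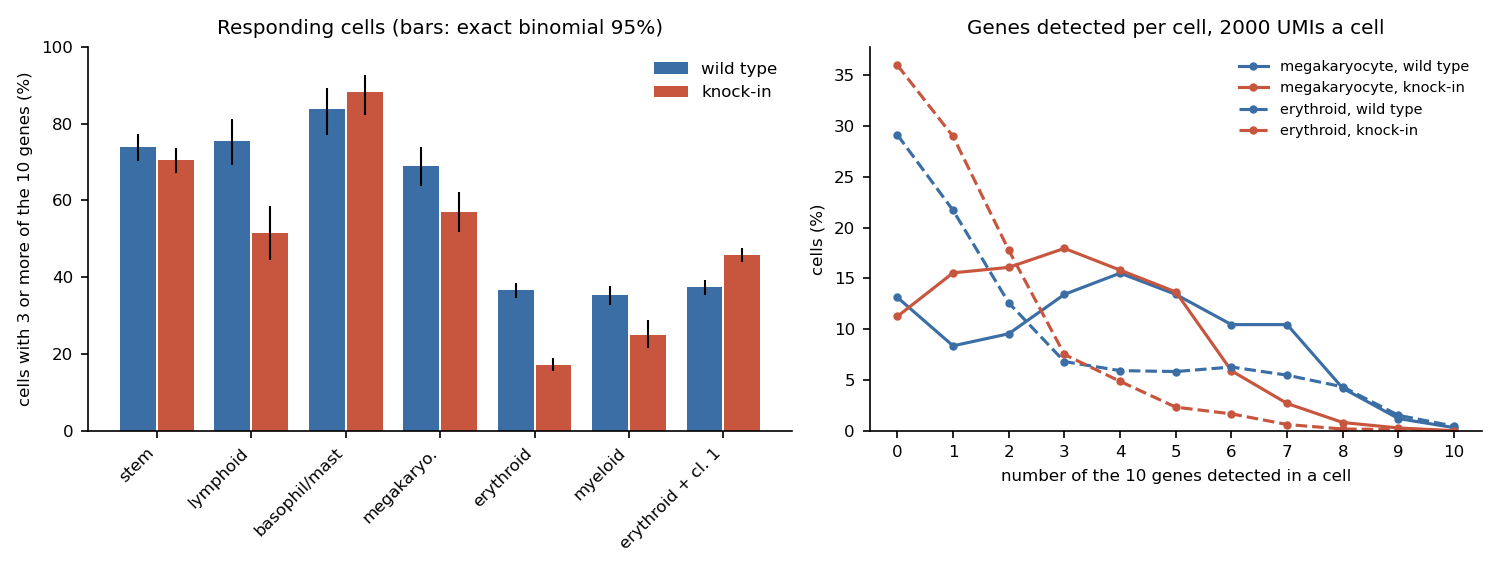
Left, share of cells with at least 3 of the 10 genes detected after thinning to 2000 UMIs, in percent, per class and library, with exact binomial 95% intervals; right, percent of megakaryocyte and erythroid cells by the number of genes detected. The knock-in share is lower in lymphoid-primed, megakaryocyte, erythroid and myeloid cells, and it lies above the wild-type share once cluster 1 is added to the erythroid class.

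Erythroid cells were placed in early, middle and late ranges of a stage score, the mean of 17 maturing genes minus that of 8 early genes, cut at the terciles of the wild-type cells. The ranges are stretches of a continuous score and not cell types, and 13.03% and 17.0% of wild-type cells lay within 0.1 of the lower and the upper bound. Fewer cells were responding at each later range in both libraries. In wild type 76.0% of early, 26.4% of middle and 7.33% of late cells were responding, and in the knock-in 37.6%, 14.7% and 6.40%. The knock-in minus wild-type differences were -38.4, -11.7 and -0.933 percentage points. Summed levels were 4009 and 1311 CPM early (log2 ratio -1.61), 909 and 636 CPM in the middle range (-0.52) and 491 and 450.2 CPM late (-0.13).

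Without cluster 1, 8 members were at least 1.5-fold lower in the early range (8.76% of all genes), 5 in the middle (4.55%) and 4 in the late range (4.7%), and 0, 1 and 2 were higher (4.06%, 4.65% and 5.9%). Junb and Ier2 were the 2 early members short of that fold, with ratios below 0 (-0.41, -0.58 to -0.24, and -0.54, -0.67 to -0.40). Both were above 0 in the middle (0.60 and 0.41) and late range (1.01 and 0.68). Fos had ratios of -2.61, -1.59 and -1.15, and Zfp36 of -3.52, -1.76 and -1.91, the late value resting on 70 and 12 UMIs. Early Egr1 was at 277 and 106 CPM (-1.38, -1.54 to -1.23) and early Btg2 at 218 and 70.9 CPM (-1.62, -1.81 to -1.43), and both intervals lay below 0 in the middle range too (-0.50 and -0.69). Without cluster 1 the early range therefore held the most members below the wild-type level. Its wild-type cells came mostly from cluster 4 (82.8%), and its knock-in cells from clusters 9 (54.9%) and 3 (37.3%). Their median scores were -0.194 and -0.0559. With cluster 1 the early range no longer held the most. Egr1 and Btg2 were then at 0.06 and 0.07 early and at -0.06 each in the middle range, with intervals that included 0.

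With cluster 1 the stage shares were close, at 77.0%, 27.7% and 7.49% in wild type and 76.4%, 24.9% and 6.28% in the knock-in. The early difference was then -0.676 points and the middle difference -2.79 points. Different clusters filled the early range, since 81.1% of its wild-type cells came from cluster 4 and 73.0% of its knock-in cells from cluster 1, with median depths of 4998 and 3314 UMIs. With cluster 1 the summed levels were 4228 and 3616 CPM in the early range, 939 and 813 CPM in the middle range and 495 and 452 CPM in the late range, log2 ratios of -0.23, -0.21 and -0.13. Responding erythroid cells were also shallower than the others, with medians of 5253.5 against 20990.5 UMIs in wild type and 6751.5 against 15369 in the knock-in.

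**Figure D4:**
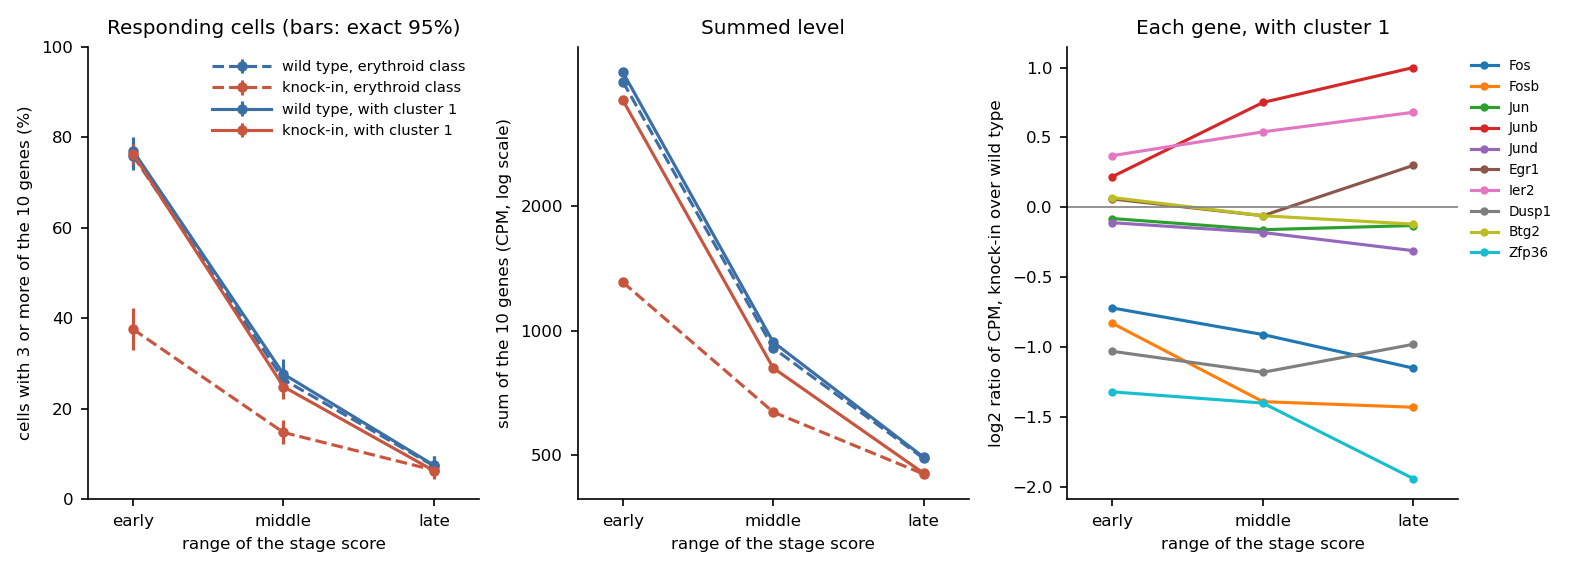
Left and centre, share of responding cells (percent, exact 95% intervals) and summed level of the 10 genes (CPM, log axis) over the 3 ranges of the erythroid stage score, per library, without (dashed) and with (solid) cluster 1; right, log2 ratio of knock-in to wild type for each gene with cluster 1. The shares and sums descend from early to late, and the early gap in the share is -38.4 percentage points without cluster 1 and -0.676 with it.

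The near-equal shares covered opposite differences of single members. With cluster 1 the same 4 members, Fos, Fosb, Dusp1 and Zfp36, were at least 1.5-fold lower in each of the 3 ranges, where 4.45%, 4.19% and 4.79% of all genes were. The number higher by that fold was 0 in the early, 1 in the middle (Junb) and 2 in the late range (Junb and Ier2), beside 5.86%, 5.18% and 5.88% of all genes. Fos stood at 728 and 442 CPM in the early, 126 and 67.2 CPM in the middle and 50.98 and 23.0 CPM in the late range, ratios of -0.72, -0.91 and -1.15. Zfp36 was at 55.3 and 22.1 CPM early (-1.32, -1.62 to -1.04), and its late ratio of -1.94 (-2.96 to -1.05) rested on 71 and 12 UMIs. Dusp1 had ratios of -1.03, -1.18 and -0.98, and Fosb of -0.83, -1.39 and -1.43.

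With cluster 1 Junb showed the reverse in each range, with 155 and 179 CPM early (0.22, 0.09 to 0.34), 47.2 and 79.4 CPM in the middle (0.75, 0.60 to 0.90) and 30.4 and 60.7 CPM late (1.0, 0.83 to 1.17). Ier2 had ratios of 0.37, 0.54 and 0.68 over the same ranges. The early signs of both were thus opposite without and with cluster 1. Among the same cells, Jun (-0.08, -0.16, -0.13) and Jund (-0.11, -0.18, -0.31) were slightly lower throughout, with all intervals below 0. Egr1 (0.06, -0.06, 0.30) and Btg2 (0.07, -0.06, -0.12) had intervals that included 0 in every range with cluster 1, and intervals below 0 in the early and middle ranges without it.

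Detection of one member went with detection of the others. For each of the 45 pairs the share of thinned cells with both members was divided by the product of the single shares, which gives 1 for unrelated detection. Pairs with fewer than 5 expected cells were left out, so the number of pairs differed between groups. In stem and multipotent cells all 45 pairs exceeded 1 in each library, with median ratios of 1.27 in wild type and 1.19 in the knock-in. Fos and Jun were found together in 49.5% of wild-type cells (product 41.4%) and Fos and Fosb in 40.4% (product 31.5%). Cells with no member at all made up 7.29%, where the product of the single shares gave 0.271%. The median ratios were 1.30 and 1.25 in megakaryocyte, 1.16 and 1.10 in basophil and mast, 1.17 and 1.29 in lymphoid-primed and 1.28 and 1.39 in myeloid cells. They rested on 45 and 42, 45 and 43, 45 and 39, and 42 and 32 pairs, in the same order.

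The ratios were highest in erythroid cells, at a median of 2.12 in wild type and 1.96 in the knock-in (2.08 and 1.64 with cluster 1). These medians rested on 45 and 36 pairs (45 each with cluster 1). In wild-type erythroid cells Fos and Fosb occurred together in 19.6% (product 8.58%), and Egr1 and Btg2 in 9.21% (product 3.40%). In the knock-in Fos and Fosb were together in 3.31% (60 cells, product 0.686%), a ratio of 4.83. Within the early range the medians were 1.28 and 1.56, against 1.98 and 1.62 in the middle and 1.58 and 1.46 in the late range. The wild-type medians rested on 45, 39 and 16 pairs and the knock-in medians on 36, 26 and 8. The median was thus smaller in each range than over the whole class, but the middle and late ranges held fewer pairs. A ratio cannot exceed 1 divided by the larger single share, so frequent detection limits it. Jund was detected in 76.1% of early and 47.3% of all wild-type erythroid cells, and in 82.55% of wild-type basophil and mast cells. Ratios of groups with unlike detection are therefore not on one scale. Members share library and cell depth, so these ratios are descriptions.

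**Figure D5:**
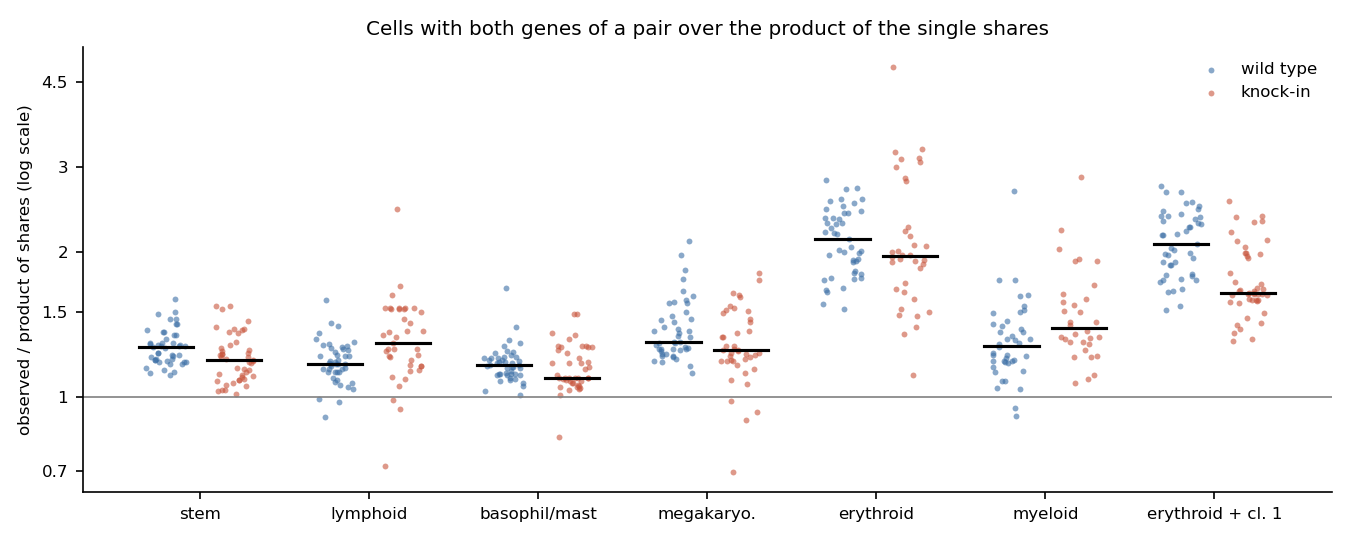
Ratio of the observed share of cells with both genes to the product of the single shares, on a log axis, with 1 point per pair of the 10 genes that had at least 5 expected cells and a line at the median, per class and library. Most pairs lie above 1, and the erythroid medians of 2.12 and 1.96 lie above those of the other classes.

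Other genes of the pathway were read from lists. Over the 6 classes, 4.44% to 6.3% of all genes were lower and 3.7% to 7.08% higher by 1.5-fold. Upstream kinases and factors differed little, with median log2 ratios from -0.07 to 0.15 over the 6 classes, with 1 gene past 1.5-fold in megakaryocyte (lower) and in myeloid cells (higher). Mapkapk2, a kinase downstream of p38, lay between -0.20 and 0.16. Among 9 other AP-1 genes no class had a member lower or higher by 1.5-fold, with 1 to 5 measured in each, and Atf2 lay between -0.41 and 0.43. Of 14 feedback genes, 1 was lower by that fold in each class other than basophil and mast cells, where none was, and 1 was higher in basophil and mast and in erythroid cells. The list included Zfp36l2, the most abundant relative of Zfp36, which was not lower in any class (0.02 to 0.70), and Btg1, which was lower by 1.5-fold in lymphoid-primed cells only (-0.59).

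The 31 other immediate early genes in the tables split in direction. In stem and multipotent cells 4 of 21 measured were lower and 2 higher, in lymphoid-primed cells 3 of 14 and 0, in basophil and mast cells 3 of 12 and 1, in megakaryocyte cells 5 of 17 and 1, in erythroid cells 5 of 23 and 3, and in myeloid cells 4 of 21 and 1. Of all genes, 4.44%, 6.3%, 6.13%, 4.81%, 6.27% and 4.81% were lower by 1.5-fold, in the same order. The shares higher were 3.8%, 4.32%, 7.08%, 3.7%, 4.7% and 4.94%. The Krüppel-like factors Klf2 and Klf6, named after their values were seen, were at least 1.5-fold lower in all 6 classes, Klf6 for example at 246 and 139 CPM among stem and multipotent cells (-0.82, -0.99 to -0.65). With cluster 1 the erythroid Klf6 ratio was 0.07. Nfkbia, the inhibitor of NF-kB, was higher in erythroid cells, at 47.0 and 141 CPM (1.59, 1.5 to 1.67), and in basophil and mast cells (0.82). Myc and Mcl1 did not pass 1.5-fold in any class.

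Heat shock genes, which also respond to tissue handling, did not follow Fos. The list's medians lay between -0.02 in basophil and mast and 0.27 in myeloid cells. None was lower by 1.5-fold in any class, where 4.44% to 6.3% of all genes were. In lymphoid-primed cells 1 was higher (4.32% of all genes), and in myeloid cells 2 were (4.94%). Hsp90aa1, an HSP90 chaperone, had ratios above 0 in all 6 classes (0.38 to 0.67) and passed 1.5-fold in myeloid cells only, with 772 and 1059 CPM among stem and multipotent cells. The part of handling in the member values was not tested.

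Of 2798 genes with at least 50 CPM on average, Klf6 had the pattern most like the summed members over the 12 class-by-library levels (Pearson r = 0.984), followed by Malat1 (0.979), Slc38a2 (0.961), Btg1 (0.956) and Arf4 (0.945). These points share libraries and depth, and the correlations are descriptions. Among the members themselves, Fosb (0.963) and Dusp1 (0.963) were closest to the sum of the others and Zfp36 (0.706) the farthest, its highest level being in lymphoid-primed and not in basophil and mast cells.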

How the data were processed

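Single-cell 3' RNA libraries were made from Lin- Kit+ bone marrow, with a v2 reagent kit per the labels' protocols. The authors deposited raw UMI counts per gene and barcode, made with Cell Ranger 3.1.0 per the file headers, on mm10 per the submitters' processing notes. How barcodes were chosen and whether counting used strand are not given in the sources used here.

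Cells kept had at least 500 genes and 1000 UMIs, with mitochondrial UMIs no higher than 10% (scanpy 1.11.5). That limit was exceeded by 23.0% of 7471 wild-type and 11.4% of 6640 knock-in barcodes. Scrublet removed 146 wild-type doublets. In the knock-in it called 0.0692%, below the minimum of 0.5%, so the top 5% of scores (281) were removed. This left 64350027 and 43629184 UMIs. Cells were clustered from 2000 variable genes, 30 principal components, 15 neighbours and Leiden resolution 1 (best of 20 runs), leaving out the members, the listed genes, and also Gata1, Xist and Tsix, genes of the Y chromosome and of mitochondria, and ribosomal protein genes. Clusters were named from marker lists. The comparison with the median of the other clusters, the pooling of 3 myeloid lists and the majority needed for a name were decided after the clusters were seen.

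For each library and class, summed UMIs gave the CPM of a gene. Levels have exact Poisson, shares exact Clopper-Pearson, ratios exact conditional binomial 95% intervals, and a difference of shares combines both exact intervals. Intervals and floors (3 UMIs where a sum was 0) cover counting error only. With 1 library per group no test across samples was possible. Scripts were tested on simulated data. Gene positions came from GENCODE M21 and promoter sequences from RefSeq.

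The members and lists were chosen with earlier results of these data known. Named genes were the members, the 4 genes with the most UMIs in each list, and the 5 most correlated with the summed members. Some of these are not reported here. Alternatives covered cell filters, doublets, clustering, scaling, thinning depth, thresholds and stage scores.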

Additional observations from a re-analysis of the deposited data

Results flagged for a closer look

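The knock-in to wild-type ratio of Junb had opposite signs in 2 classes, with intervals on opposite sides of 0. It was 0.40 in erythroid cells and -0.51 in myeloid cells. The Btg2 ratio was 0.56 in basophil and mast cells and -1.12 in erythroid cells. Neither difference between classes was tested, since each class had 1 library per genotype. The Btg2 contrast was absent with cluster 1 in the erythroid class, where the ratio was 0.51.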

How the results depend on the processing

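No paired analysis was possible because each genotype had 1 library. Of 560 ratios of single members under alternatives, 449 stayed within the counting interval of the value reported and 99 moved outside it. The other 12 had the opposite sign to a reported value of at least 1.5-fold. Changes of sign of smaller ratios were not counted apart and are among the 449 and the 99. Fos, Fosb, Jund, Dusp1 and Zfp36 were below 0 in all 61 values each over the 6 classes and the settings of clustering, filtering and scaling (cluster 1 apart), Jun in 57, Egr1 in 47, Junb in 46, Btg2 in 30 and Ier2 in 14. These genes were singled out after their values were seen. The cause of the changes below was not tested, and 1 library per genotype and the shallower knock-in cells limit all of them. For the counts of members below, the share of all genes was taken only with cluster 1 added and at 1.2-fold.

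Under the stricter cell filter (1000 genes, 2000 UMIs, 5% mitochondrial) 4 erythroid members were lower and 2 higher, the erythroid responding difference was 2.26 percentage points, and Jun (0.09), Egr1 (0.45) and Btg2 (0.08) were above 0. In myeloid cells 7 were lower, with a difference of -19.7. At resolution 1.6 the erythroid counts were 4 and 2, the difference 3.17, and Jun, Egr1 and Btg2 stood at 0.11, 0.54 and 0.39, while the myeloid difference was -3.97. With each knock-in cell assigned to a cluster of wild-type cells, the erythroid counts were 4 and 2, the difference -0.341, Egr1 0.21 and Btg2 0.10. With cluster 1 added, 2 erythroid members were lower and 2 higher, the difference was 8.43, and Jun (0.25), Jund (0.16), Egr1 (0.52) and Btg2 (0.51) changed sign.

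The looser filter (20% mitochondrial) gave differences of -14.2 in lymphoid-primed and -1.39 in myeloid cells, with 1 myeloid member lower and 1 higher. With doublets kept the erythroid difference was -22.0 and 1 myeloid member was lower, and at resolution 0.6 the erythroid difference was -29.1. Lower myeloid members numbered 4 with listed genes allowed in clustering, 5 with the median gene scaled to 0, 4 without mitochondrial and ribosomal protein genes in the total, and 4 without the 3 cells richest in members. At 1.2-fold, with the shares of all genes given above, higher members numbered 1 each in stem and multipotent, basophil and mast, and erythroid cells, and lower members 8 in lymphoid-primed, 9 in megakaryocyte and 7 in myeloid cells.

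Thinning to 1000 UMIs gave differences of -9.28 in stem and multipotent and -4.95 in myeloid cells, and thinning to 4000 gave -4.05 in megakaryocyte and -9.40 in erythroid cells. Requiring 2 members gave -14.1 in erythroid cells, and requiring 5 gave -9.55 in stem and multipotent, -7.55 in basophil and mast and 0.238 in myeloid cells.

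From early to late, the responding share differed by -68.6 points in wild-type and -31.2 in knock-in erythroid cells. With a score of red cell membrane genes only, these were -48.6 and -19.2, and the knock-in minus wild-type differences were -32.6 early and -21.2 in the middle range. With stages from the nearest wild-type cells, the differences were -27.5 early and -3.93 late, and the knock-in fell by 45.1 points. With cluster 1 they were -0.676 early and -2.79 in the middle, and the knock-in fell by 70.1. Within the early, middle and late ranges the median co-detection ratio was 1.28, 1.98 and 1.58 in wild type and 1.56, 1.62 and 1.46 in the knock-in. These medians rested on 45, 39 and 16 pairs and on 36, 26 and 8 pairs. Resolution 0.6 left no value for stem and multipotent or lymphoid-primed cells, and assignment to the wild-type clusters none for these or basophil and mast cells.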

Other observations

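The barcodes over 10% mitochondrial UMIs that were summed here carried more of the 10 genes than the barcodes under that limit. The summed level was 2872 CPM in 700 such wild-type barcodes, against 1706 CPM in the other 5635, and 3217 CPM in 301 knock-in barcodes, against 1678 CPM in the other 5781. They were a part of all barcodes over the limit, which were 23.0% of 7471 in wild type and 11.4% of 6640 in the knock-in. Those summed held 1602435 and 607707 UMIs, against 67981244 and 46910365 in the others. The high-mitochondrial barcodes have no class here, and the part of their state or depth in the levels was not tested.

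Cells in which 9 or 10 members were detected after thinning were few. In stem and multipotent cells 2.38% (wild type) and 0.930% (knock-in) of the cells had 9 members, and 0.792% of wild-type cells and no knock-in cell had all 10. Basophil and mast cells had 9 members in 6.04% (wild type) and 3.07% (knock-in) of cases.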
